A study of Mus musculus with 30 samples.

Results

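Rod photoreceptor genes were followed in mouse retinas from a model of oxygen-induced retinopathy (OIR). The list holds 35 genes of rod phototransduction, the outer segment and rod gene control, and was joined to the arrays by gene symbol. Of these, 32 had a probe set among the 12393 genes measured, and Gucy2f, Impg2 and Nr2e3 had none. Each gene is given by its brightest probe set, judged by the mean of 30 arrays.

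The study measured 30 retinas on expression arrays, 1 retina from each pup, in 10 groups of 3. The 2 groups without injection were pups kept in normoxia and pups of the OIR model, which were placed at postnatal day 7 (P7) in 75% oxygen with their nursing dams for 5 days. The other 8 groups were OIR pups injected into the vitreous at P5, before the oxygen, or at P12, on return to room air. Each day had a saline group, an ECFC group (the usual abbreviation for endothelial colony-forming cells, 100000 cells), a CD34+ cell group (10000 cells) and a group given both (110000 cells, here the combination). The sample labels give stage P17 for every retina, while the series design text pairs injection at P5 with collection at P12, so a difference between P5 groups and other groups and a difference of collection day cannot be told apart. Strain and sex of the pups are not stated in the labels.

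Rods are the photoreceptors of dim light and the most numerous neurons of the mouse retina. In a rod, light-activated visual pigment switches on transducin, transducin switches on phosphodiesterase 6, the fall in cyclic GMP closes the channel of the outer segment, and kinase, arrestin and calcium-sensing proteins return the cell to rest. Nrl and Crx are transcription factors that switch on most of these genes while rods mature in the first weeks after birth, and mouse OIR is used as a model of retinopathy of prematurity.

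Promoters of 4 members are shown because the results below turn on Tulp1, Cngb1 and Grk1, which differed between the 2 saline groups, and on Sag, which differed least among the groups; they were chosen after their values were seen. The sequences are RefSeq's (GRCm38.p6), 250 bases before to 50 after the start of the gene, 5′ to 3′ on the strand of the gene. Capitals mark TAATCC or its reverse complement GGATTA, the core bound by Crx, and TGCTGA or its reverse complement TCAGCA, a core letter run of the Nrl site. The windows are chr1:87803430-87803729 (plus strand) for Sag, chr8:95306536-95306835 (minus strand) for Cngb1, chr8:13404831-13405130 (plus strand) for Grk1 and chr17:28365167-28365466 (minus strand) for Tulp1.
Sag: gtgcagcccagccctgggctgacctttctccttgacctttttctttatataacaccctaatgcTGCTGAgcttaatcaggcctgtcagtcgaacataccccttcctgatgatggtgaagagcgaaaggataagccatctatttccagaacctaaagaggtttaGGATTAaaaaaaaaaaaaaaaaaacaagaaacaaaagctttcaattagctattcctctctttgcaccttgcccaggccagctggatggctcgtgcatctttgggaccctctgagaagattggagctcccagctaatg
Cngb1: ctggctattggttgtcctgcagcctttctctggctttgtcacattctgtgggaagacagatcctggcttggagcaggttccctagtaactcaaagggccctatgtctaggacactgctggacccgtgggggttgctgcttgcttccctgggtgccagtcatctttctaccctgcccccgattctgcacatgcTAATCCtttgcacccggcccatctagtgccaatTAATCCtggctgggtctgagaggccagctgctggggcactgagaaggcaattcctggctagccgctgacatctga
Grk1: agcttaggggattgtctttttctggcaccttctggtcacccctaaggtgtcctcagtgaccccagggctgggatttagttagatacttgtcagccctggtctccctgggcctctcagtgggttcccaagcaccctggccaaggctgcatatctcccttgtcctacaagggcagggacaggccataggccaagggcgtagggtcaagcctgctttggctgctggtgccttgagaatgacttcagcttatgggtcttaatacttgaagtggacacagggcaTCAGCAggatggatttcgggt
Tulp1: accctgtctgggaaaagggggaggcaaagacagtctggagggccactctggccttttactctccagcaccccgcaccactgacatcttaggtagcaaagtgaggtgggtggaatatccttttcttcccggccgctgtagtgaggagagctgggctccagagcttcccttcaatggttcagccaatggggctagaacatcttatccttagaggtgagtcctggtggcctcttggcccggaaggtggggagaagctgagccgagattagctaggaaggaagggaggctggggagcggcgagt

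Sag held GGATTA 87 bases and TGCTGA 187 bases before the start. Cngb1 held TAATCC 58 and 25 bases before the start, Grk1 held TCAGCA at base 30 after it, and neither motif was found in the Tulp1 window, which says only that these letters are not there. No matches overlapped. Only the first listed promoter of each gene was counted. Of 28 members with a promoter, 12 (42.9%) held TAATCC on either strand, against 7.16% of 27025 genes, and 8 (28.6%) held TGCTGA, against 19.1%. Unc119 held 1 match of each motif in further listed promoters, which were not counted. Sag, Aipl1, Rbp3 and Rpgrip1 held both. These matches describe letters and are not sites shown to be bound.

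The deposited values are log2 expression values, and all differences below are on that scale. Probe signals of the rod genes were bright. The mean of 26 of the 32 lay above the 95th percentile of the 12393 genes, the dimmest being Gucy2e at percentile 60.9; such ranks describe probes and do not order transcripts. Gnat1, Gnb1, Sag and Pde6g averaged 14.27, 14.25, 14.30 and 14.16, while the brightest probe set of an array lay between 14.95 and 15.18, and whether this closeness narrowed their differences was not tested. Array medians ran from 8.16 to 8.49. The mean of 18 hybridisation control probe sets was 13.23 to 13.65 on the 12 arrays from P12 injections and 11.86 to 12.96 on the other 18. Lens genes (12 measured, among them crystallins) averaged 8.71 to 14.1 on the P5 arrays other than the first of the CD34+ group (7.46), and 5.99 to 7.09 on all others but one normoxia array (9.08).

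Rod gene levels stayed close together over the 10 groups. Averaged over the 32 members, the groups lay between 12.76 (P5 saline, SD over arrays 0.08, n = 3) and 12.91 (normoxia, SD 0.08, n = 3), with 12.87 in untreated OIR (SD 0.07, n = 3). The range of the 10 group means was under 0.5 for 23 members, between 0.5 and 1 for 8, and over 1 for Tulp1. Its median was 0.30 for the rod genes and 0.60 for all genes, with a median standard error of a difference of 0.09 for rod genes and 0.14 for all genes. P5 saline held the lowest mean of 10 members and normoxia the highest of 10.

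By role, the transducin subunits that carry the light signal ranged by 0.22 (Gnat1, the rod alpha subunit), 0.27 (Gnb1, beta) and 0.27 (Gngt1, gamma) over the groups. Of the phosphodiesterase 6 subunits, which break down cyclic GMP, the inhibitory subunit Pde6g ranged by 0.27 and the catalytic Pde6b by 0.23, while the other catalytic subunit Pde6a ranged by 0.48. In the cyclic GMP-gated channel Cnga1 ranged by 0.17 and Cngb1 by 0.60, and the exchanger Slc24a1, which removes calcium, by 0.49. Among the shut-off genes the arrestin Sag ranged by 0.13, the smallest range of the 32, recoverin (Rcvrn) by 0.17, phosducin (Pdc) by 0.44, Rgs9, which speeds transducin's turn-off, by 0.65, and the pigment kinase Grk1 by 0.90. The cyclase Gucy2e ranged by 0.69 and the cyclase activators Guca1a and Guca1b by 0.60 and 0.26.

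The disc rim proteins Prph2 and Rom1 ranged by 0.69 and 0.22, Rp1 of the axoneme by 0.68 and Prom1, which shapes disc membranes, by 0.17. Abca4, Rdh12 and Rbp3, which handle retinoids, ranged by 0.34, 0.32 and 0.23, and the matrix proteoglycan Impg1 by 0.69. Nrl and Crx ranged by 0.18 and 0.39. In the group of trafficking and chaperone genes Aipl1, needed to fold phosphodiesterase 6, ranged by 0.23, Unc119, a lipid-binding carrier, by 0.33, Rpgrip1 of the connecting cilium by 0.28, Reep6 of the endoplasmic reticulum by 0.25, and Tulp1, needed for protein transport to the outer segment, by 1.41. The heat map of group means shows lower Tulp1, Cngb1 and Prph2 and higher Grk1, Rgs9, Pde6a and Impg1 in the P12 groups. Not every wide range lay there, since Rp1 was lowest in P5 saline (12.39) and highest in normoxia (13.07). Guca1a was lowest in the P12 CD34+ group (12.94) and highest in normoxia (13.54).

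**Figure D1:**
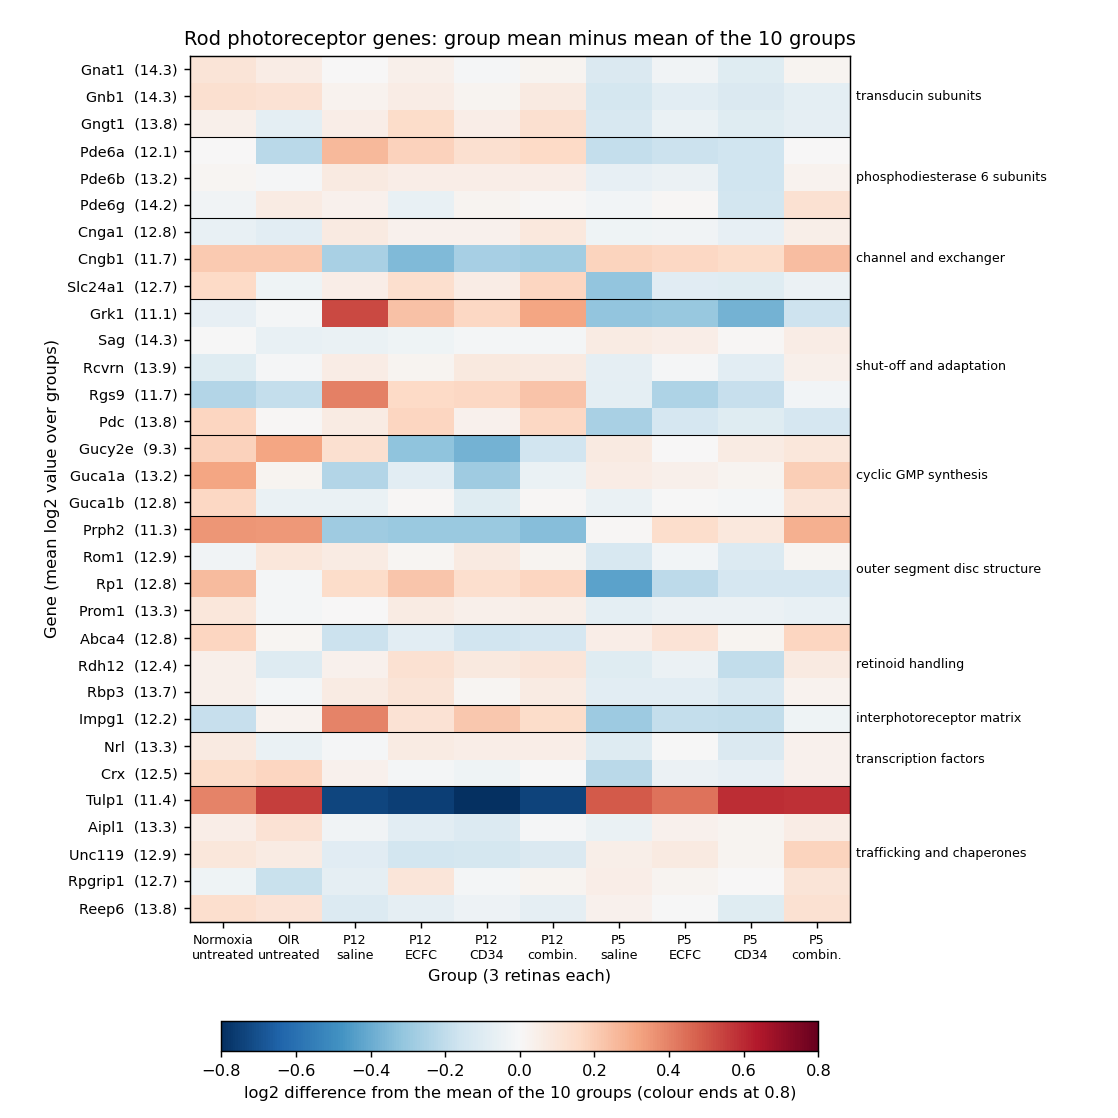
Colours give each group mean of 3 retinas minus the mean of the 10 group means of that gene (log2; red higher, blue lower, ending at 0.8), for the 32 rod genes ordered by role, with the mean log2 value in brackets. Most rows stay pale, 23 ranging by under 0.5, and Tulp1 shows the deepest contrast, 10.62 to 10.71 in the P12 groups against 11.84 to 12.03 in the others.

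The members also moved together from retina to retina. Deviations from the group means correlated with a median r of 0.51 over 496 pairs of members, 93.1% of them positive, a description in which the 30 arrays are shared by every pair. In the P5 CD34+ group the second array held the lowest value of all 32 members and the first the highest of 28. In untreated OIR the third array was lowest in 26, and in the P5 combination group the third was highest in 29. Shifts of single retinas of this kind bear on every member at once, so the members are not independent readings of a group difference.

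The first comparison was of untreated OIR with normoxia. No rod gene passed limma's test in either direction (0 of 32), while 4.56% of all genes did. A dimmer probe set of Gngt1 (mean 7.99) differed by -0.65 and passed (limma, adjusted p over all probe sets 0.021). The other Gngt1 probe sets differed by -0.20, -0.07 and -0.11, none passing. Differences ran from -0.30 (Guca1a) to 0.21 (Impg1) with a median of -0.03, beside -0.02 for all genes. Total RNA of a retina was measured, so here and in what follows fewer rods and less RNA per rod cannot be told apart. The 95% intervals of 29 members stayed within 0.5 on either side of 0, a ratio of 1.41, and those of Gucy2e, Guca1a and Rp1 reached past it.

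Gnat1 read 14.42, 14.34 and 14.36 in normoxia and 14.34, 14.37 and 14.28 in untreated OIR. These overlap, with a difference of -0.04 ± 0.07 (SE, adjusted p = 0.76). Nrl read 13.42, 13.39 and 13.42 in normoxia against 13.34, 13.35 and 13.17 in OIR, where each OIR retina was below each normoxia retina, yet the difference of -0.12 ± 0.07 did not pass (adjusted p = 0.36). Rp1 read 13.02, 12.84 and 13.35 against 12.84, 12.78 and 12.78, a difference of -0.27 (interval -0.52 to -0.02, adjusted p = 0.22). Guca1b showed the smallest p of the list, with 12.97, 12.99 and 12.93 in normoxia and 12.75, 12.77 and 12.74 in OIR, and an adjusted p of 0.15.

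The remaining named genes differed by -0.03 (Pde6b), -0.06 (Sag), 0.03 (Crx) and 0.16 (Tulp1), with adjusted p from 0.61 to 0.91. In 8 members all 3 OIR retinas lay below all 3 normoxia retinas and in 1 above, against 13.3% and 12.9% of all genes. An unadjusted p under 0.05 was found for 3 members (Guca1b, Rp1 and Slc24a1). Without the third OIR array, which was low in 26 members, the median difference was 0.01, and no member passed with any array left out.

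Among other photoreceptor genes 3.57% were called, beside 4.56% of all genes (3.59% higher and 0.968% lower). Of 28 further photoreceptor genes measured, 1 fell in OIR (Cplx3 of the ribbon synapse, by 0.44) with a list median of -0.05, and of 13 cone genes none passed, with a median of 0.08. In the same retinas Mt1 and Mt2, metallothioneins of the stress list, rose by 1.11 and 1.70 (2 of 12 genes of that list, median 1.31), and the microglial genes C1qc, C1qb and Aif1 rose by 1.71, 1.41 and 1.22 (3 of 13, median 1.08). Of 13 genes of Müller glia 2 rose (Sox9, a transcription factor, by 0.63, and Vim, an intermediate filament protein, by 0.49) and 2 fell (Aqp4, a water channel, by 0.87, and Abca8a by 0.85), with a median of -0.22.

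**Figure D2:**
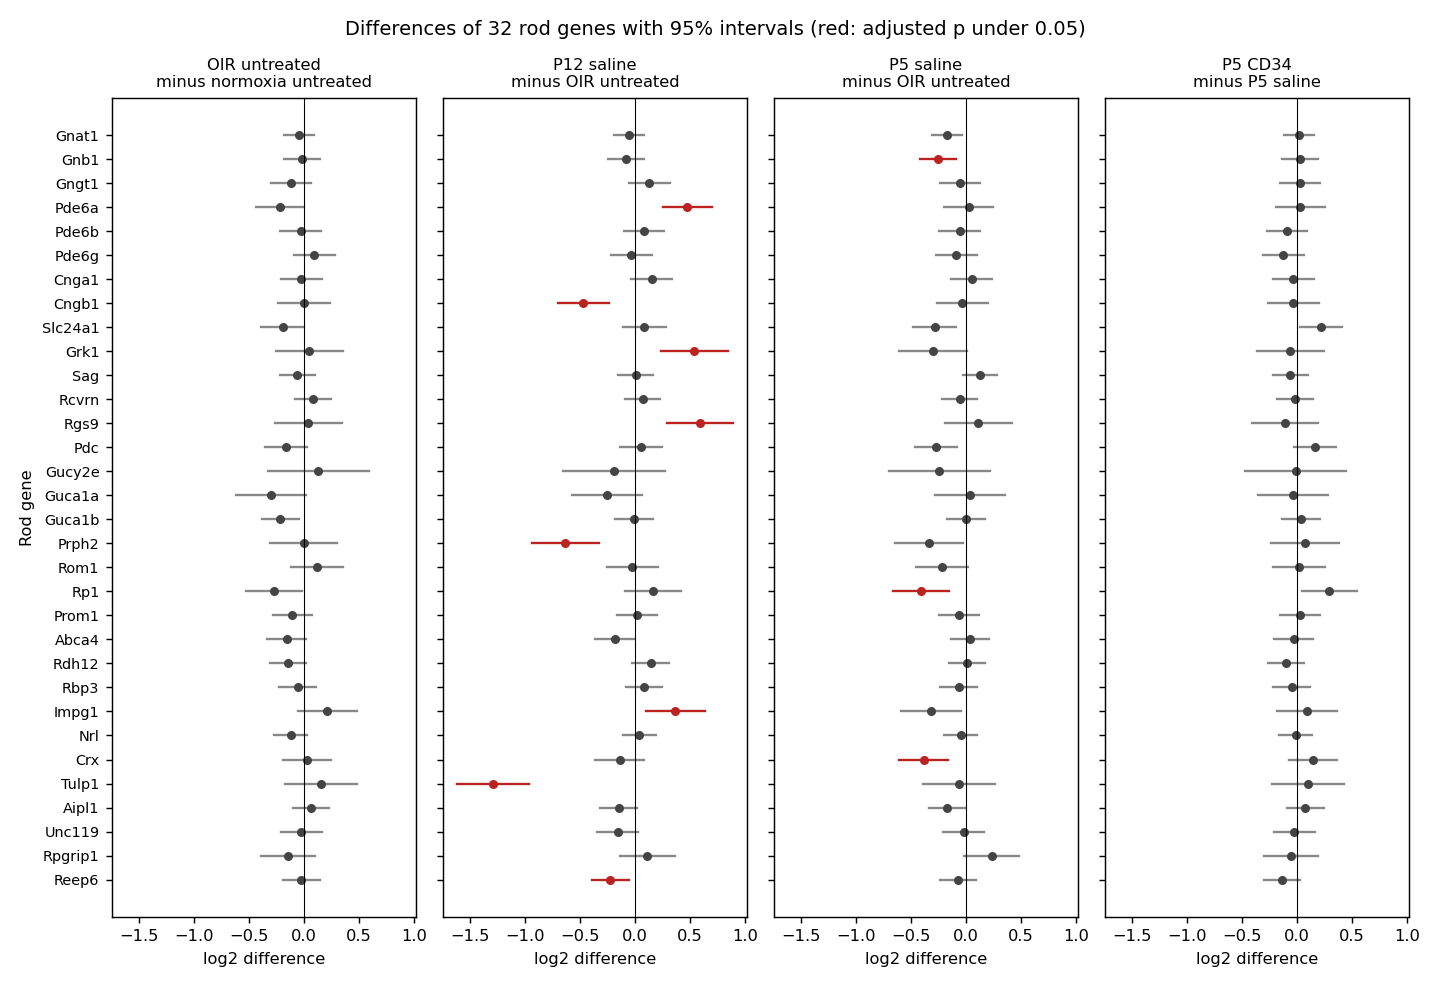
Points are log2 differences of the 32 rod genes in 4 comparisons, bars 95% intervals from limma, and red marks an adjusted p under 0.05. None is red for OIR against normoxia or for P5 CD34+ against P5 saline, 8 are red for P12 saline against OIR, with Tulp1 at -1.29, and 3 for P5 saline against OIR.

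Retinas injected with saline at P12 differed from untreated OIR retinas in 8 of 32 rod genes, 4 higher and 4 lower. Of all genes 21.3% were called, 5.95% higher and 15.4% lower, so the rod share of 25% lies near the background. The fall of Tulp1 was the largest. It read 12.01, 12.05 and 11.94 in untreated OIR and 10.55, 10.85 and 10.72 in P12 saline, and no retinas overlapped. The difference was -1.29 ± 0.16 (SE, adjusted p = 7.8e-06), a ratio of 0.409. Lack of overlap was common in this comparison, found for 28.3% of all genes in the lower direction and 20.1% in the higher.

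Prph2 and Cngb1, both of the outer segment, fell without overlap. Prph2 read 11.85, 11.76 and 11.41 in OIR and 11.05, 11.13 and 10.94 after P12 saline, a difference of -0.63 ± 0.15 (adjusted p = 0.0038). Cngb1 read 11.997, 12.04 and 11.77 against 11.49, 11.57 and 11.34, a difference of -0.47 ± 0.11 (adjusted p = 0.0046). Reep6 fell by 0.22 (adjusted p = 0.049), near the threshold, and the call was lost whichever of the 6 arrays was left out.

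The members that rose were 2 genes that end the light response, 1 phosphodiesterase subunit and 1 matrix gene. Rgs9 read 11.51, 11.58 and 11.40 in OIR and 12.23, 12.05 and 11.98 after P12 saline, a difference of 0.59 ± 0.15 (adjusted p = 0.0052). Grk1 read 11.03, 10.999 and 11.12 against 11.73, 11.52 and 11.52, a difference of 0.54 ± 0.15 (adjusted p = 0.011). Pde6a read 12.01, 11.95 and 11.78 against 12.47, 12.39 and 12.31, a difference of 0.48 ± 0.11 (adjusted p = 0.0026). All 3 saline retinas of each gene stood above all 3 OIR retinas, as in 20.1% of all genes.

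Impg1 rose by 0.37 (adjusted p = 0.047), a call that was also lost whichever of the 6 arrays was left out. Its second probe set, of nearly equal brightness, differed by 0.05 (adjusted p = 0.80). Gnat1, Pde6b, Sag, Nrl and Crx differed by -0.06, 0.08, 0.01, 0.04 and -0.14, with adjusted p from 0.37 to 0.96. For Crx a second probe set rose by 0.42 (adjusted p over all probe sets 0.019), so its probe sets point apart. A second Gnb1 probe set likewise rose by 0.28 (adjusted p over all probe sets 0.016), while the brightest differed by -0.08.

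The scale on which the arrays were set bears on these counts. After median centring, which puts the median difference of all genes at 0.16, 9 rod genes were higher and 2 lower (11 in all), where the deposited values gave 4 and 4. Of all genes, 2108 were then called higher and 950 lower, where the deposited values gave 738 and 1904. Adjusted for the mean of the hybridisation controls, 3 members passed (Pde6a, Rgs9 and Tulp1). The controls were 13.25 to 13.48 in P12 saline and 12.44 to 12.52 in untreated OIR. Without overlap, this fit cannot separate the controls from the injection. Leaving out the first P12 saline array left 5 called, and Pde6a, Cngb1, Rgs9, Prph2 and Tulp1 were called with any of the 6 arrays left out.

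The shift was seen in all 4 groups injected at P12. Tulp1 was between 10.36 and 10.91 on the 12 P12 arrays (median 10.73) and between 11.53 and 12.24 on the other 18 (median 11.96). Cngb1 was between 11.34 and 11.57 on the P12 arrays (median 11.46) and between 11.60 and 12.09 on the others (median 11.93). These were the only 2 of 32 members whose P12 values did not overlap the others, both lower, against 4.84% of all genes lower and 1.02% higher.

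Other members shifted with overlap. Impg1 was 12.18 to 12.60 on the P12 arrays against 11.52 to 12.31 on the others, and Gucy2e was 8.69 to 9.52 against 8.78 to 9.84. Grk1 was 11.11 to 11.73 on the P12 arrays against 10.37 to 11.17, Rgs9 was 11.63 to 12.23 against 11.07 to 11.87, Pde6a was 12.11 to 12.47 against 11.68 to 12.28, and Prph2 was 10.81 to 11.14 against 10.998 to 11.88. The P12 arrays are also those with hybridisation controls at 13.2 or above, so injection at P12 and this difference between arrays cannot be told apart. The covariate fit given above does not separate them.

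**Figure D3:**
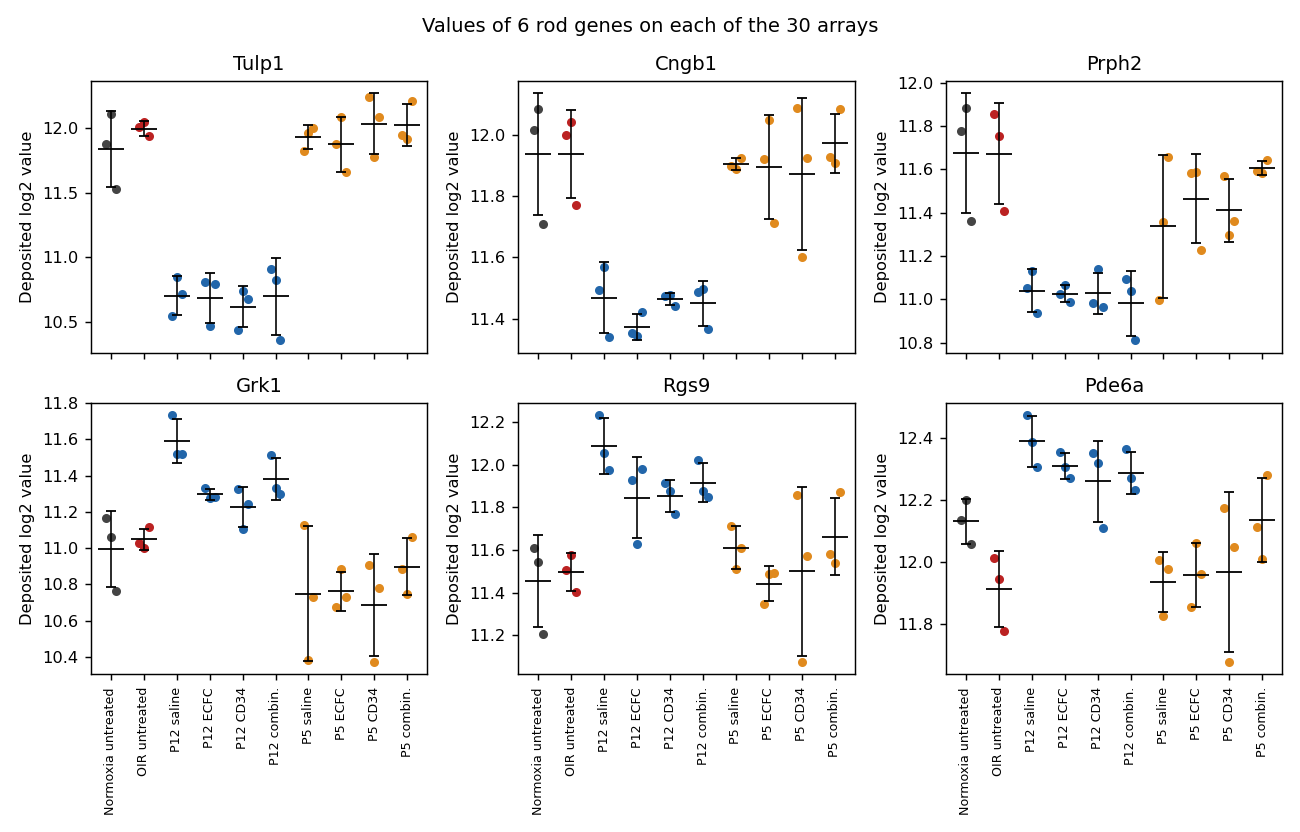
Each point is 1 retina, black bars the mean and SD of 3, and the vertical axis is the deposited log2 value, for Tulp1, Cngb1, Prph2, Grk1, Rgs9 and Pde6a in the 10 groups. Tulp1 is at or below 10.91 on every P12 array and at or above 11.53 on all others.

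Among the other photoreceptor genes, P12 saline against OIR gave 2 higher and 3 lower of 28 with a median of 0.10, led by Mef2d, a transcription factor (-0.75), Rorb, a nuclear receptor (0.52), and Cacna1f, the calcium channel of the synapse (-0.42). Of 13 cone genes 1 rose (Thrb, the thyroid hormone receptor, 0.57) and 1 fell (Ccdc136, -0.37), with a median of -0.14. The shares called were 17.9% of the other photoreceptor genes and 15.4% of the cone genes, beside 21.3% of all genes.

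Retinas injected with saline at P5 differed less from untreated OIR. Of 32 rod genes 3 were lower and none higher (9.38%), against 8.69% of all genes in either direction, 4.88% lower and 3.81% higher. Crx read 12.73, 12.70 and 12.47 in OIR and 11.97, 12.33 and 12.43 in P5 saline, with no overlap and a difference of -0.39 ± 0.11 (adjusted p = 0.025). Of all genes, 14% were lower without overlap. A second Crx probe set differed by 0.23 in the other direction without passing (adjusted p = 0.27). Rp1 read 12.84, 12.78 and 12.78 against 12.44, 12.20 and 12.52, a difference of -0.41 ± 0.12 (adjusted p = 0.038). Gnb1 differed by -0.26 ± 0.08 (adjusted p = 0.043), with overlap, while its other probe sets differed by 0.07 and 0.26.

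In the same comparison Gnat1 differed by -0.17 (adjusted p = 0.11), Pde6b by -0.06, Sag by 0.13, Nrl by -0.05 and Tulp1 by -0.07, none passing, and the median over the 32 was -0.06. These calls were fragile. None was left without the first P5 saline, the first OIR or the second OIR array, 1 (Crx) without the second P5 saline array, 2 (Crx and Slc24a1) without the third OIR array, and 6 without the third P5 saline array. None passed after adjustment for the mean of the lens genes. That mean was 10.88 to 13.84 in P5 saline and 5.99 to 7.05 in OIR, so this fit cannot separate it from the injection. Lens genes were higher in P5 saline in 12 of 12 cases (median 6.65) and pigment epithelium genes in 8 of 12 (median 1.31), and 2 of 13 cone genes were lower (Kcne2, -0.50, and Opn1mw, the medium-wave cone pigment, -0.47). Of 28 other photoreceptor genes Samd11 rose by 0.36 and Rp2 fell by 0.995.

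Set directly against P12 saline, P5 saline held 2 rod genes higher and 7 lower, which is 28.1% of the rod genes, against 27.7% of all genes (19.2% higher, 8.57% lower). It shares its arrays with the preceding comparisons. Tulp1 was 1.22 higher (adjusted p = 6.9e-06, a ratio of 2.34) and Cngb1 was 0.44 higher (adjusted p = 0.0054). Among the lower genes Grk1 read 11.13, 10.38 and 10.73 at P5 against 11.73, 11.52 and 11.52 at P12, a difference of -0.84 ± 0.15 (adjusted p = 0.00019). Impg1 read 12.01, 11.69 and 11.88 against 12.60, 12.52 and 12.53, a difference of -0.69 ± 0.13 (adjusted p = 0.00039), and its second probe set differed by -0.30 without passing.

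Rp1 was lower by 0.57 (adjusted p = 0.0011), Rgs9 by 0.48 (0.016), Pde6a by 0.45 (0.0026), Slc24a1 by 0.37 (0.0043) and Pdc by 0.33 (0.009), all as log2 differences with limma's adjusted p. Gnat1, Pde6b, Sag, Nrl and Crx differed by -0.12, -0.14, 0.12, -0.09 and -0.25, with adjusted p from 0.089 to 0.38. The calls of Rgs9 and Pdc were lost without the first P12 saline or the second P5 saline array. Lens genes were higher in P5 saline in 12 of 12 cases (median 6.82). After adjustment for their mean the median over the 32 members was 0.08 in place of -0.11, and 6 passed, 5 higher and 1 lower. Of these, Cngb1, Grk1 and Tulp1 were among the 9, while Pde6a, Slc24a1, Rgs9, Pdc, Rp1 and Impg1 did not pass. Adjusted for the hybridisation controls, 9 passed, without Cngb1, Pdc and Rp1. Grk1 and Tulp1 passed under both. Neither covariate overlapped between the 2 groups. The lens mean was 10.88 to 13.84 in P5 saline and 6.03 to 6.24 in P12 saline, and the controls were 11.92 to 12.72 and 13.25 to 13.48. The adjustments rest on differences within groups, so they cannot separate either covariate from the day of injection. Under median centring the split was 1 higher and 19 lower, against 1339 higher and 2479 lower of all genes. Under quantile normalization it was 3 higher and 12 lower, against 1785 higher and 1774 lower of all genes. Of other photoreceptor genes 3 rose and 5 fell of 28, led by Rp2, a ciliary membrane protein (-0.88), Cacna1f (0.74) and Rorb (-0.60).

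After cells given at P12 no rod gene passed against saline of that day. None of the 32 passed against P12 saline for ECFC, CD34+ cells or the combination, where limma called 0.0161%, 0% and 0% of all genes. At an unadjusted p under 0.05 there were 1, 2 and 0 rod genes, against 1996, 643 and 1226 of all genes. Differences ran from -0.50 (Gucy2e, CD34+) to 0.19 (combination), with medians of 0.00, -0.01 and 0.02. The 95% intervals stayed within 0.5 of 0 for 28, 29 and 28 of 32, with Grk1 and Gucy2e among those reaching past it each time.

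For the 6 genes named throughout, P12 differences from saline lay between -0.09 (Tulp1, CD34+) and 0.08 (Nrl, ECFC), and the lowest adjusted p was 0.59. Tulp1 averaged 10.71 ± 0.15 (saline), 10.69 ± 0.19 (ECFC), 10.62 ± 0.16 (CD34+) and 10.70 ± 0.30 (combination; SD, n = 3 each). Grk1, raised in P12 saline against OIR, averaged 11.59 in saline, 11.30 in the ECFC group, 11.23 in the CD34+ group and 11.38 in the combination group. Its largest difference, -0.36 with CD34+ cells, had an adjusted p of 0.92.

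At P5 the cell groups differed from P5 saline in no rod gene either (0 of 32 for ECFC, CD34+ and the combination). A dimmer Gnb1 probe set (mean 7.86) differed by -0.81 with CD34+ cells (limma, adjusted p over all probe sets 0.02), and the brightest by 0.03. Of all genes 0%, 8.46% and 0% passed, and 1, 2 and 4 rod genes had an unadjusted p under 0.05, against 779, 2796 and 978 of all genes. The medians were 0.04, -0.01 and 0.13. Intervals stayed within 0.5 of 0 for 31, 31 and 29 of 32. The 6 named genes lay between -0.09 (Pde6b, CD34+) and 0.25 (Crx, combination), with 0.45 as the lowest adjusted p.

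In the P5 CD34+ group genes of other retinal neurons were called while no rod gene was. Ganglion cell genes fell in 9 of 9 cases (median -1.38), led by Slc17a6, the vesicular glutamate transporter (-2.85), Sncg (-2.09) and the neurofilament gene Nefm (-1.68). Bipolar cell genes fell in 8 of 10 and rose in 1 (median -0.68), amacrine genes fell in 4 of 10 (median -0.51), and genes of microglia (3 of 13, median 1.08) and pigment epithelium (4 of 12, median 0.56) rose. Against these, 5.4% of all genes were called lower and 3.07% higher. Of the photoreceptor lists, 0 of 32 rod genes, 0 of 13 cone genes (median 0.11) and 1 of 28 others (Cplx3, -0.42; median -0.03) passed.

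Single retinas carried much of this contrast. The ganglion cell list averaged 8.23, 10.57 and 8.97 in the 3 P5 CD34+ retinas, 9.93 in the third P5 combination retina, and 10.41 to 11.01 on all other arrays. The rod list averaged 12.93, 12.57 and 12.81 on the same 3 CD34+ retinas and 12.99 on that combination retina. The retina with the highest ganglion cell value of the CD34+ group thus held the lowest rod value. Without the first CD34+ array 4 ganglion cell and 2 bipolar genes were lower, and without the second 9 and 8, with 1 rod gene (Slc24a1) then called higher. Without the first, the second or the third P5 saline array 9, 5 and 5 ganglion cell genes were lower, and without the third CD34+ array 5.

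**Figure D4:**
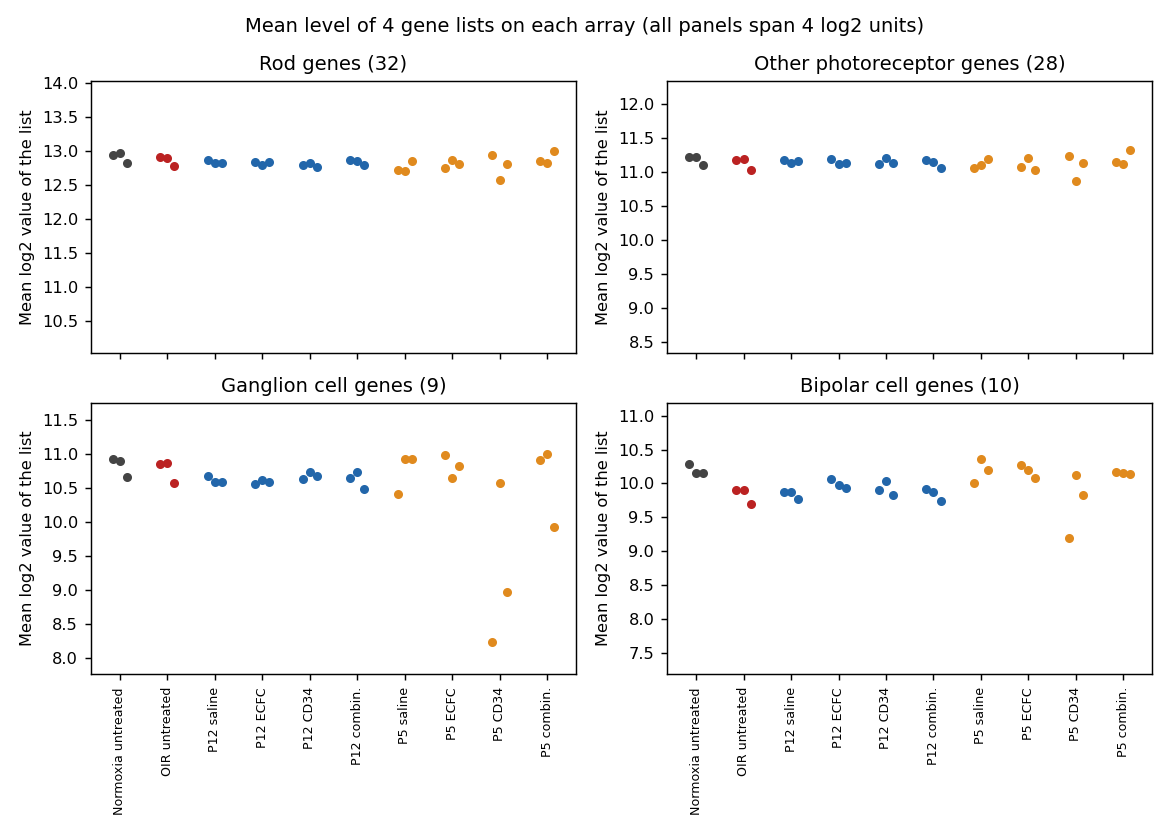
Points are the mean log2 value of the rod, other photoreceptor, ganglion cell and bipolar cell lists on each of the 30 arrays, every panel spanning 4 log2 units. Ganglion cell genes drop to 8.23 and 8.97 on 2 P5 CD34+ arrays, while the rod mean stays between 12.57 and 12.99 on every array.

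In the P5 combination group 31 of 32 rod genes were above P5 saline by a small amount, against 5213 of 12393 genes. In 9 members all 3 retinas lay above all 3 saline retinas, against 4.79% of all genes. The members moved together from retina to retina, so these counts are not independent readings, and the third combination array was highest in 29. Rp1 read 12.44, 12.20 and 12.52 in saline and 12.63, 12.55 and 12.87 with the combination, a difference of 0.29 (interval 0.04 to 0.55, adjusted p = 0.56). Slc24a1 differed by 0.27 (adjusted p = 0.46) and Crx by 0.25 (adjusted p = 0.57). The median of 0.13 was 0.08 without the third combination array and 0.03 after adjustment for the mean of the lens genes.

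Against P5 CD34+ cells, the P5 combination was higher in 1 rod gene of 32, with 7.83% of all genes called and 4.27% called higher. Rdh12, a retinol dehydrogenase of the inner segment, read 12.32, 12.02 and 12.25 with CD34+ cells and 12.43, 12.36 and 12.60 with the combination, a difference of 0.27 ± 0.08 (adjusted p = 0.043). The groups did not overlap, as in 10.2% of all genes in this direction. The call was lost when any of 5 of the 6 arrays was left out, and without the first CD34+ array 3 passed (Pde6g, Rdh12 and Reep6). Gnat1, Pde6b, Sag, Nrl, Crx and Tulp1 differed by 0.12, 0.19, 0.05, 0.15, 0.10 and -0.01, none passing. The median over the members was 0.12, and 0.02 without the second CD34+ array, in which every member was lowest. In the same comparison Rorb rose by 0.40 as the called gene among 28 other photoreceptor genes.

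Whether cells acted differently at P5 and at P12 was tested as the difference between the differences from saline. No rod gene passed for ECFC, CD34+ cells or the combination, where 0.0323%, 1.9% and 0% of all genes did. At an unadjusted p under 0.05 there were 0, 0 and 1 rod genes, against 1480, 2102 and 1419 of all genes. The medians were 0.04, 0.03 and 0.10. Among the 6 named genes these differences lay between -0.10 (Sag, CD34+) and 0.28 (Crx, combination, interval -0.03 to 0.59), with adjusted p from 0.47 upward. Intervals of 23, 24 and 22 members stayed within 0.5 of 0.

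Over the 11 comparisons 14 members were called at least once and 18 never, and the matching share of all genes was not counted. Among these comparisons, P12 saline against OIR called 21.3% of all genes and P5 saline against P12 saline 27.7%. Calls other than Rdh12 came from the comparisons among saline and untreated retinas, and no member was called in a comparison of cells with saline of the same day.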

How the data were processed

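Total RNA of 30 retinas was amplified, biotin-labelled and hybridised to arrays, per the labels' protocols. The authors deposited log2 values, 1 per probe set and array; the submitters' processing notes name Partek, and its version and the normalization are stated in no source used. Groups follow the sample labels. Of 22690 probe sets, 20380 carried a single gene symbol (29 of these without a RefSeq match), 691 carried several, 1555 none, and 64 were control sets. The probe set with the highest mean stood for each of 12393 genes.

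Differences were tested with limma 3.58.1 (R 4.3.3): 1 mean per group over 30 arrays, 20 residual degrees of freedom, eBayes, two-sided, Benjamini-Hochberg adjustment over 12393 genes in each of 14 contrasts, called at an adjusted p under 0.05. The fit was tested on simulated data with independent noise for each gene, which does not cover shifts of whole arrays. Precision is limited by 3 arrays a group. No 2 arrays were identical. The labels do not state that replicate numbers pair retinas. Correlations of residuals of equally numbered arrays ran from -0.45 to 0.45, with 0 comparisons having every pair above 0.1. With 3 arrays a group this cannot exclude pairing.

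The members, roles and gene lists were chosen with earlier results of these data known. Named in every comparison were Gnat1, Pde6b, Sag, Nrl, Crx and Tulp1, plus up to 6 called members in each direction, and up to 3 called genes of other lists. Alternatives were quantile normalization, median centring, the mean of all probe sets, leaving out the lowest 30% of means, eBayes with trend and robust settings, a replicate block, fitting the compared groups alone, covariates, and leaving out each array. Leaving out arrays for the other gene lists was added after seeing the data. Proteins and positions beyond RefSeq promoters were not used here.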

Additional observations from a re-analysis of the deposited data

Results flagged for a closer look

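Impg1, a proteoglycan of the matrix around photoreceptors, was singled out by the values of its brightest probe set. All 3 combination retinas lay above all 3 saline retinas at P5 and below them at P12. Of all genes, 4.79% lay above without overlap at P5 and 10.2% below at P12. Impg1 was 0.26 above saline at P5 and 0.25 below it at P12 (a difference of -0.25). The difference between these was 0.51 (interval 0.12 to 0.89), and it did not pass over all genes (limma, adjusted p = 0.36). A second Impg1 probe set, of nearly equal brightness, differed by -0.04 for the combination at P12 (limma, adjusted p over all probe sets 0.91).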

How the results depend on the processing

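The counts of called rod genes for OIR against normoxia, for ECFC and the combination against saline at both days, for CD34+ cells at P12 and for the differences between days were 0 under every alternative run. For P12 saline against OIR the 8 calls became 3 with the hybridisation control covariate and 5 to 6 with an array left out. For P5 saline against OIR the 3 calls became 6 with eBayes trend and robust settings, 5 without the lowest 30% of means, 1 with median centring, and 0 with the mean of all probe sets, with the compared groups alone and with the lens covariate, and 0 to 6 with an array left out. For P5 saline against P12 saline the 9 calls became 15 with quantile normalization, 20 with median centring, 6 with the lens covariate (3 of them among the 9), 9 with the hybridisation control covariate (6 of them among the 9), and 7 to 12 with an array left out. For the P5 combination against P5 CD34+ the 1 call became 3 with quantile normalization, median centring or eBayes trend and robust settings, 2 without the lowest 30% of means, and 0 with the mean of all probe sets, the compared groups alone and the lens covariate, and 0 to 3 with an array left out. For P5 CD34+ against P5 saline 1 (Gnb1) was called with the mean of all probe sets and 0 to 1 with an array left out. Gnb1 in P5 saline against OIR changed sign to 0.0225 with the mean of all probe sets. With the replicate block, although the labels do not state that the numbers pair retinas, the counts were 7, 2, 9 and 0 for 4 comparisons. Their order is P12 saline against OIR, P5 saline against OIR, P5 saline against P12 saline and P5 combination against P5 CD34+. The cause of these moves was not tested. Of the values for single genes, 1079 stayed on the same side of the threshold, 74 lost the call, 12 gained it and 1 called value changed sign. Direction was compared only where a value was called, so uncalled values among the 1079 may have changed sign. The brightest members lie near the top of the array range, and whether this limited the rise they could show was not tested.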
